A study of Mus musculus with 10 samples.

Results

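The comparison described here set MAF9 cells treated with the MENIN inhibitor MI-2-2 against MAF9 cells given DMSO, the solvent, across all genes. It comprised 4 of the 10 RNA-seq libraries of the study. The DMSO libraries differed from each other in the sex of their cells, as described below. MAF9 cells come from C57BL/6 mouse bone marrow into which the fusion gene MLL-AF9 was introduced, a laboratory model of acute myeloid leukemia in which every library, controls included, carries the fusion. The cells grew with interleukin-3 at 10 ng/ml and 15% fetal bovine serum, and each inhibitor was given for 4 days at its own half-maximal dose. The sample titles write the agent as MI, the treatment note as MI-2 and the study's methods as MI-2-2, and the libraries are called MI below. The other groups were MM401, an inhibitor of the WDR5-MLL1 contact, EPZ, an inhibitor of the histone methyltransferase DOT1L, and iBET, a bromodomain inhibitor. Each group held 2 libraries described as biological duplicates. The sources do not say how the duplicates of a group were separated, so p-values measure the spread between these libraries only.

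MENIN is a scaffold protein that holds MLL1, and the MLL fusion proteins that keep the MLL1 amino terminus, on chromatin. In leukemias driven by MLL fusions the contact sustains HOXA9 and MEIS1, a pair of homeobox transcription factors that keep myeloid cells in a self-renewing state. Normal myeloid precursors that leave this state fill first primary granules and then specific and gelatinase granules if they become neutrophils, or take on scavenger receptors, lysosomes and chemokine production if they become macrophages. The comparison asked which genes changed in level after 4 days with the inhibitor of this contact. It does not separate direct effects from later ones.

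The unit throughout is CPM, the reads of a gene in a library brought to 1000000 reads, scaled between libraries by the trimmed mean of M-values (TMM), a method that assumes most genes hold their level. A gene was called when edgeR's quasi-likelihood test, fitted on all 10 libraries, gave a Benjamini-Hochberg adjusted p below 0.05, and a gene was called separate when both MI libraries lay on 1 side of both DMSO libraries. Of 24015 genes in the file, 12971 had enough reads to be tested. Total reads were 23717378 and 20394762 in the DMSO libraries and 23793470 and 29473127 in the MI libraries, so that 1 read corresponded to between 0.0365 and 0.0479 CPM in these libraries.

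The pair of DMSO libraries was the least alike of the 5 groups. Among genes averaging at least 1 CPM, 15.8% differed more than 2-fold between the DMSO libraries, against 4.29% between the MI libraries and 1.41% to 3.91% in the other groups. DMSO library 2 held 3630 reads of Y-linked genes and 4.65 CPM of Xist, the RNA that silences 1 X chromosome in female cells. The other 9 libraries held 0 to 2 Y-linked reads and between 1026 and 2818 CPM of Xist, so that this control library went against the rest in the sex of its cells. Its part in the differences below was not tested, and values are therefore given for each DMSO library.

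MI treatment was followed by a higher level of most specific and gelatinase granule, macrophage, phagocyte receptor and interferon response genes, and by a lower level of most genes for primary granules, DNA replication, ribosome assembly and amino acid synthesis. Of the genes tested, 5373 (41.4%) were called, 2626 of them higher with MI (20.2%) and 2747 lower (21.2%). Both MI libraries lay above both DMSO libraries in 4287 genes (33.1%) and below them in 4525 (34.9%). All 2626 called genes that rose (20.2%), and 2738 of those that fell (21.1%), were also separate. The split depended on the scaling: with libraries scaled to their total reads, 2156 genes rose and 3659 fell, and the median log2 fold change of all genes was -0.20 in place of -0.05. The count also depended on the controls, since 4234 of the 5373 calls (78.8%) were made in the same direction without DMSO library 2, 4959 (92.3%) without DMSO library 1 and 3912 (72.8%) in both of these fits. Each of the fits without a DMSO library kept 1 control, so the spread between controls did not enter them. A fit on these 4 libraries alone called 1147 genes. Counts in the gene lists below were mostly smaller in that fit. Specific and gelatinase granule genes rose in 22 cases in place of 34. Macrophage and monocyte genes rose in 26 in place of 38, and interferon response genes in 12 in place of 33. MYC network and ribosome biogenesis genes fell in 14 in place of 48, and oxidative phosphorylation genes in 0 in place of 29. The background shares of 20.2% and 21.2% are those against which the main-fit counts in each gene list are set. In the fit on 4 libraries, 769 genes rose and 378 fell of all 12572 tested. Fits with 1 library left out have backgrounds of their own, so their list counts are not to be set against these shares.

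**Figure D1:**
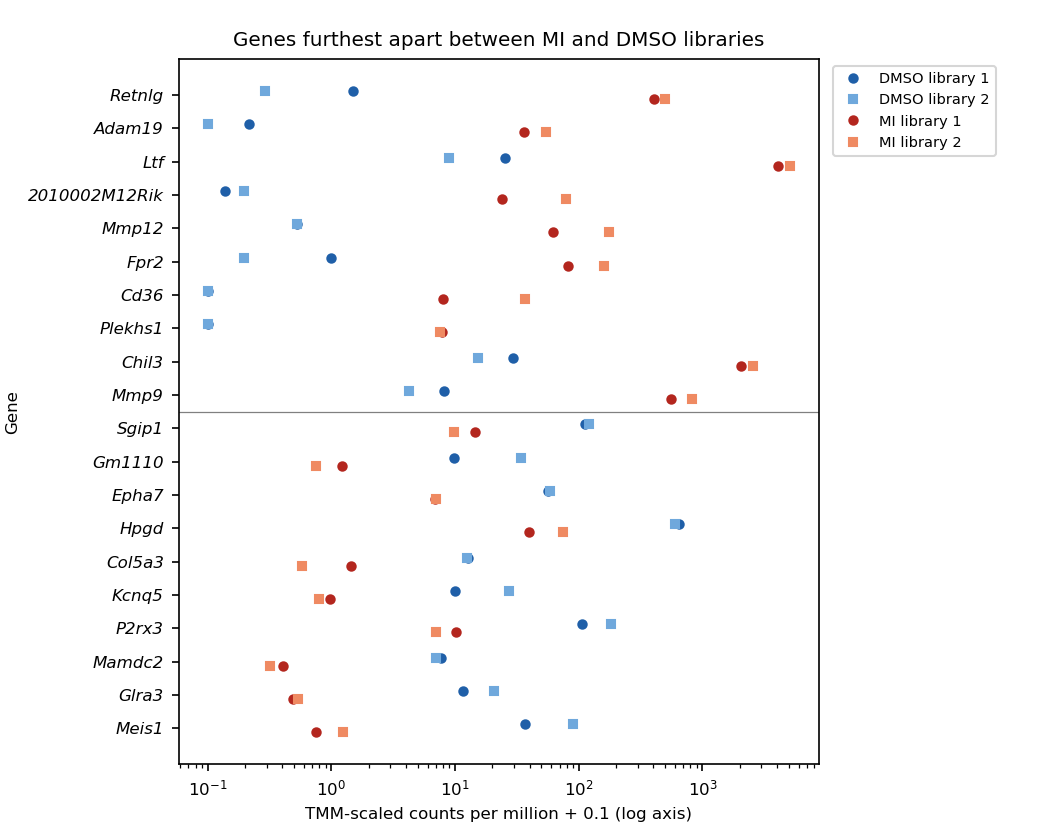
TMM-scaled CPM plus 0.1 (log axis) of the 10 genes furthest above and the 10 furthest below DMSO in the MI libraries, 1 point for each of the 4 libraries (circles, library 1; squares, library 2). The red MI points and the blue DMSO points do not overlap for any of the 20 genes, which were chosen for their distance.

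Genes were ranked by the distance between the closest MI and DMSO libraries, so that a gene could not lead through 1 library. The order describes the choice and was not tested further. Retnlg, a secreted neutrophil protein of the resistin family, had 1.40 and 0.192 CPM in the DMSO libraries and 409 and 502 CPM in the MI libraries. The MI libraries lay close together and at least 272.5-fold above either control, and the log2 fold change was 9.08 (SE 0.588, edgeR adjusted p = 0.000231). Ltf, lactoferrin of the specific granules, had 25.2 and 8.92 CPM with DMSO and 4053 and 5093 CPM with MI, a mean 267.8-fold higher (edgeR adjusted p = 0.000316). Chil3, a chitinase-like protein of granules and activated macrophages, had 29.1 and 15.3 CPM with DMSO and 2034 and 2576 CPM with MI. Mmp9, the gelatinase that names its granule, had 7.98 and 4.17 CPM with DMSO and 561 and 831 CPM with MI. Fpr2, a receptor for formylated bacterial peptides, had 0.896 and 0.0959 CPM against 81.3 and 159 CPM. For each of these genes the higher DMSO value was that of library 1.

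Genes nearly silent in the controls included surface and secreted proteins of macrophages. Mmp12, the macrophage elastase, had 0.428 and 0.431 CPM with DMSO and 61.6 and 174 CPM with MI. Cd36, a scavenger receptor for oxidized lipid, had no read in either DMSO library and 7.89 and 36.8 CPM with MI, which made it at least 366.1-fold higher when 3 reads over both DMSO libraries are taken as the limit of a count of 0. Plekhs1 had no DMSO read and 7.76 and 7.41 CPM with MI, at least 117.5-fold higher by the same limit. Adam19, a membrane-bound metalloprotease, had 3 reads in the DMSO libraries together and 2314 with MI, a ratio of 711.9 (exact 95% interval 243.3 to 3454, counting error only). The interval for 2010002M12Rik ran from 284.8 to 4042 around a ratio of 833.1, again on 3 DMSO reads. The MI libraries differed among themselves in this group, since Cd36, Mmp12 and 2010002M12Rik were each more than 2-fold higher in MI library 2 than in MI library 1.

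Among the genes that fell, Meis1 was furthest from the controls. Meis1, the homeobox cofactor that drives MLL-fusion leukemia together with HOXA9, had 36.4 and 89.9 CPM with DMSO and 0.650 and 1.13 CPM with MI. Both controls lay far above both MI libraries, with a log2 fold change of -6.12 (SE 0.598, edgeR adjusted p = 0.000610). P2rx3, an ATP-gated ion channel, had 107 and 182 CPM with DMSO and 10.1 and 6.98 CPM with MI. Hpgd, the enzyme that inactivates prostaglandins, had 647 and 601 CPM with DMSO and 39.4 and 74.4 CPM with MI, a mean 10.97-fold lower. Epha7, an ephrin receptor, had 56.7 and 58.1 CPM against 6.81 and 6.98 CPM, and Sgip1, an endocytosis adaptor, had 113 and 121 CPM against 14.3 and 9.64 CPM. In Epha7 and Sgip1 the libraries of each group were nearly alike. The remaining genes were Glra3, a glycine receptor subunit, Kcnq5, a potassium channel, Col5a3, a collagen chain, Mamdc2 and Gm1110, with DMSO levels between 6.86 and 33.8 CPM and MI levels between 0.219 and 1.34 CPM. The tenth gene that rose, Mmp9, had a closest distance of 69.4-fold and the next gene, Fpr1, 69.3-fold. The tenth that fell, Sgip1, had 7.9-fold and the next, Mpo, 7.4-fold.

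Genes of the MLL-fusion program did not move as 1 group. Hoxa9 had 445 and 380 CPM with DMSO and 401 and 363 CPM with MI. The groups overlapped, and the log2 fold change of -0.11 (SE 0.125) did not pass the test (edgeR adjusted p = 0.501). Of the 35 members of the MLL-fusion and Hox-Meis list that were tested, 7 rose and 12 fell, with a median log2 fold change of -0.58 against -0.05 over all genes. Without DMSO library 2 that median was 0.01, without DMSO library 1 the counts were 11 and 20, and 4 rose when either MI library was left out. Id2, an inhibitor of helix-loop-helix factors, had 13.2 and 6.66 CPM with DMSO and 133 and 160 CPM with MI. Gata2, a stem cell factor that is also used by mast cells, had 4.01 and 1.68 CPM with DMSO and 0.173 and 0.146 CPM with MI.

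Of 24 tested stem and progenitor genes, 2 were higher and 9 lower with MI. These counts were 6 and 6 without DMSO library 2 and 5 and 13 without DMSO library 1, and 5 were lower without MI library 2. Lin28b, an RNA-binding protein of fetal progenitors, had 2.45 and 18.9 CPM with DMSO and 0.0434 and 0.402 CPM with MI. The DMSO libraries differed several-fold, and both still lay above both MI libraries (edgeR adjusted p = 0.00800). Ly6a, the surface antigen Sca-1, had 0.389 and 0.575 CPM with DMSO and 8.93 and 2.52 CPM with MI.

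Messages of Men1, Kmt2a, Wdr5 and Dot1l differed by at most 1.328-fold between the group means. Men1, which encodes MENIN, had 81.1 and 76.0 CPM with DMSO and 78 and 51.6 CPM with MI. These values overlapped, and the log2 fold change was -0.28 (SE 0.254, edgeR adjusted p = 0.405). Kmt2a, which encodes MLL1, had 282 and 269 CPM against 309 and 356 CPM (edgeR adjusted p = 0.195), and Wdr5 did not pass the test either (edgeR adjusted p = 0.537). Dot1l, the H3K79 methyltransferase recruited by the fusion, had 131 and 141 CPM with DMSO and 104 and 101 CPM with MI (edgeR adjusted p = 0.0270), a call lost when DMSO library 2 or either MI library was left out. An inhibitor of a protein need not change its message, so these values do not check the treatment. Among 30 genes of the MENIN and MLL complexes, 5 rose and 11 fell, the latter 3 without MI library 2, 6 without DMSO library 2 and 13 without DMSO library 1. Ctr9, of the PAF elongation complex, had 117 and 179 CPM with DMSO and 72.1 and 71.8 CPM with MI. Psip1, which encodes LEDGF, the partner of MENIN on chromatin, had 77.5 and 89.7 CPM against 54.5 and 51.9 CPM. Aff4, a scaffold of the super elongation complex, had 116 and 126 CPM against 184 and 189 CPM. Dpy30, a core MLL subunit, had 60.9 and 69.9 CPM against 38.9 and 39.9 CPM. All 4 were separate and called, by less than 2.1-fold.

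In endocrine cells MENIN maintains the CDK inhibitors Cdkn1b and Cdkn2c. Cdkn2c, which encodes p18, had 65.0 and 85.3 CPM with DMSO and 6.24 and 9.39 CPM with MI, a mean 9.617-fold lower with both groups tight (edgeR adjusted p = 0.000507). With EPZ, Cdkn2c had 12.8 and 19.9 CPM, and MI against EPZ did not pass the test (edgeR adjusted p = 0.376). Cdkn1b, which encodes p27, had 67.3 and 20.3 CPM with DMSO and 110 and 81.3 CPM with MI. The MI libraries were higher, but the test was not passed (edgeR adjusted p = 0.0929), and without DMSO library 1 it was (edgeR adjusted p = 0.000840). Of 15 tested genes on a list of MENIN targets known from endocrine cells, 2 rose and 2 fell, and without DMSO library 1 these counts were 7 and 4. The median of that list was 0.18, and -0.22 without DMSO library 2. Hgf, hepatocyte growth factor, had 2.06 and 4.27 CPM with DMSO and 23.9 and 35.8 CPM with MI. Ccnd1, cyclin D1, had 1.87 and 1.77 CPM against 8.72 and 16.2 CPM. Ezh2, the H3K27 methyltransferase, had 125 and 165 CPM against 57.3 and 63.0 CPM.

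**Figure D2:**
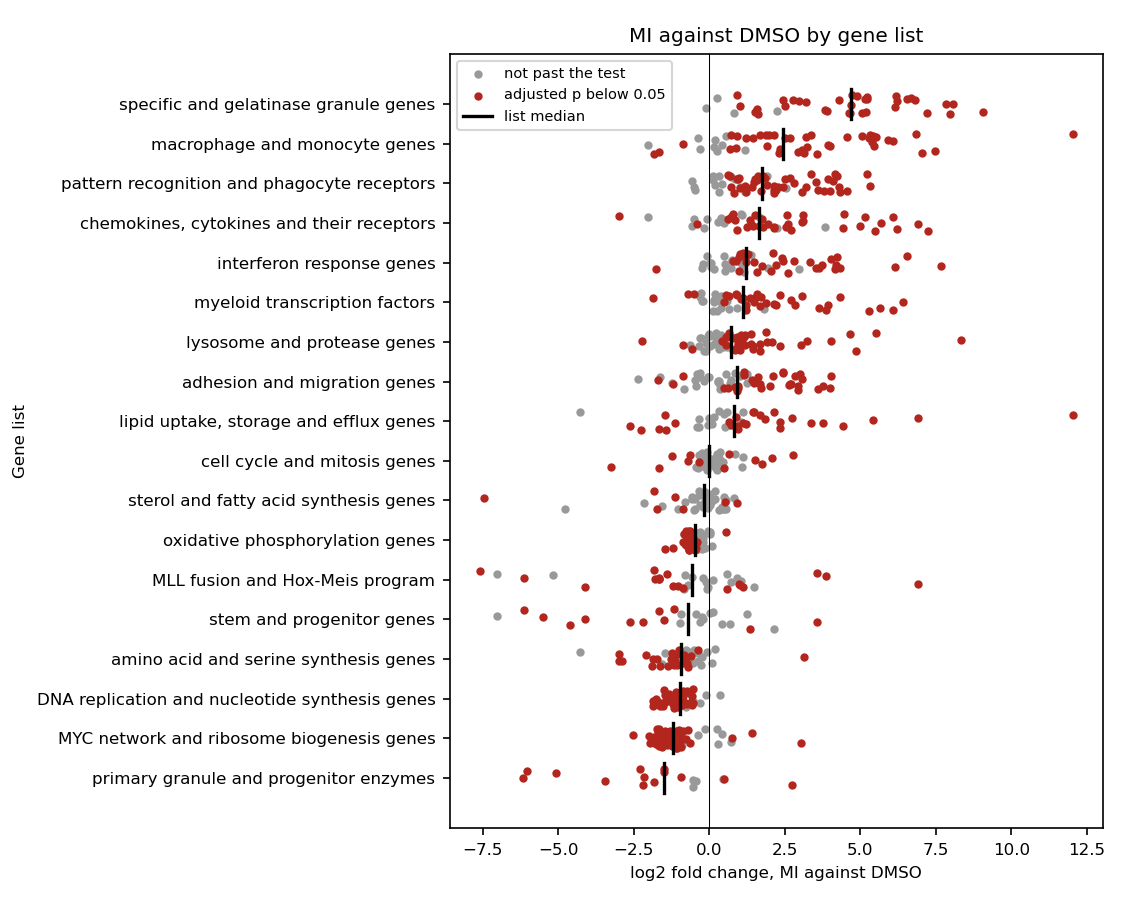
Log2 fold change of MI against DMSO for every tested member of 18 gene lists, 1 point a gene (red, edgeR adjusted p below 0.05; grey, not past the test; black bar, list median). The median is 4.68 for specific and gelatinase granule genes and -1.51 for primary granule enzymes, the latter -0.89 without DMSO library 2.

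Granule genes divided by the stage at which they are made. Of 38 tested specific and gelatinase granule genes, 34 rose and 0 fell, with a median log2 fold change of 4.68 against -0.05 over all genes and a background of 20.2%. The number that rose ranged from 31 to 36 when 1 of the 4 libraries was left out, and 33 members were more than 2-fold above the controls even in their closest libraries. The summed level of the list was 6824 and 2968 CPM with DMSO and 61743 and 65389 CPM with MI. The median of DMSO library 2 minus DMSO library 1 over the list was -1.64 on the log2 scale, with 8 members higher in library 2. S100a9, S100a8 and Ngp, abundant proteins of neutrophil cytoplasm and granules, took 1.43% and 1.37%, 1.15% and 1.17%, and 0.949% and 0.761% of all MI reads. In the DMSO libraries S100a9 took 0.146% and 0.0178%.

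Primary granule and progenitor enzymes moved the other way in most cases, with 11 of 17 tested members lower, 2 higher and a median of -1.51, which was -0.89 without DMSO library 2. Elane, neutrophil elastase, had 4195 and 4009 CPM with DMSO and 1039 and 643.6 CPM with MI, a mean 4.875-fold lower (edgeR adjusted p = 0.00232). Mpo, myeloperoxidase, had 386 and 4817 CPM with DMSO and 19.6 and 52.0 CPM with MI. Both controls lay above both MI libraries, but the controls differed more than 10-fold, so the log2 fold change of -6.18 (SE 1.20) became -3.40 without DMSO library 2. Fcnb, a ficolin of bone marrow myeloid cells, went the other way with 1.09 and 6.09 CPM against 24.6 and 22.5 CPM. The number of members that fell dropped to 7 without MI library 2.

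**Figure D3:**
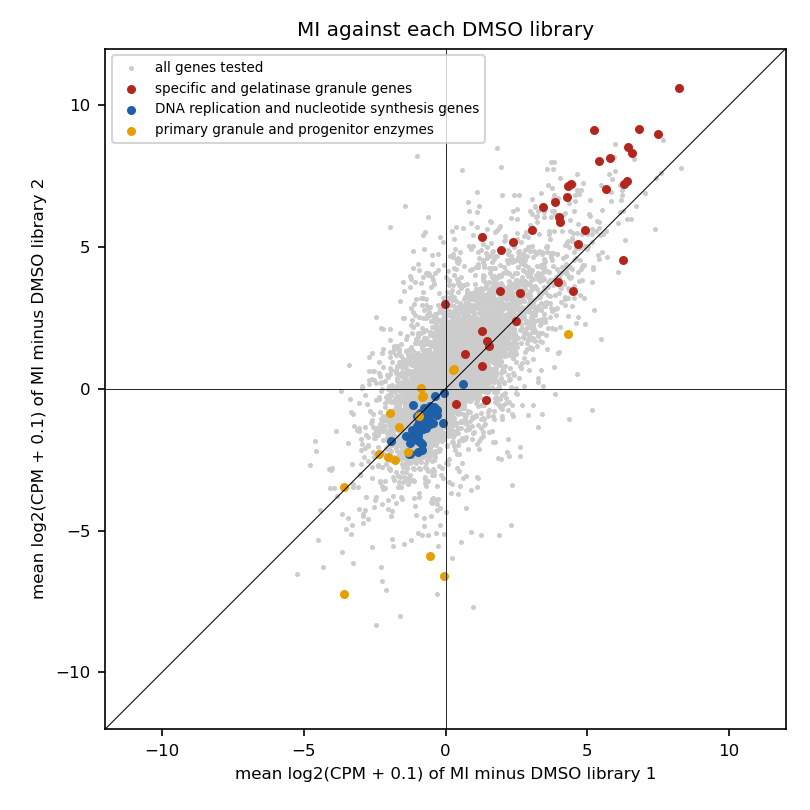
Mean log2(CPM + 0.1) of the MI libraries minus that of DMSO library 1 (horizontal) and of DMSO library 2 (vertical) for the 12971 genes tested, with 3 gene lists in color and the line of equal values. Specific and gelatinase granule genes lie mostly above and to the right of 0 and DNA replication genes below and to the left, while some primary granule enzymes lie far below 0 against DMSO library 2 alone.

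Macrophage and monocyte genes rose in 38 of 50 tested members and fell in 3, with a median log2 fold change of 2.43, and between 34 and 41 rose when 1 of the 4 libraries was left out. In this bulk RNA, more cells of a type and more RNA of that type in each cell cannot be told apart. Mrc1, the mannose receptor, had 1.67 and 1.05 CPM with DMSO and 71.9 and 247 CPM with MI, a mean 116.8-fold higher (edgeR adjusted p = 0.000676). Marco, a scavenger receptor for bacteria, had 3 reads over both DMSO libraries and 13.3 and 11.2 CPM with MI, a ratio of 188.3 (exact 95% interval 64.12 to 915.5). Maf, a transcription factor of mature macrophages, had 0.312 and 0.336 CPM with DMSO and 11.1 and 32.8 CPM with MI. Within the MI group, 43 of the 50 members were higher in library 2 than in library 1, by a median of 0.54 on the log2 scale. The list's summed level was 14041 and 20912 CPM in the MI libraries and 6384 and 5826 CPM in the DMSO libraries, which did not overlap.

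Phagocyte receptor genes were mostly higher. Of 61 pattern recognition and phagocyte receptor genes tested, 46 rose and 0 fell, with a median of 1.76, and the number that rose was 31 without MI library 2. Cybb, the catalytic subunit of the phagocyte NADPH oxidase, had 48.8 and 30.7 CPM with DMSO and 1245 and 1757 CPM with MI, a mean 37.76-fold higher (edgeR adjusted p = 0.000231). Tlr13, a receptor for bacterial ribosomal RNA, had 7.13 and 7.67 CPM with DMSO and 98.2 and 195 CPM with MI. Clec4n, which encodes Dectin-2, had 2.69 and 2.68 CPM against 49.4 and 167 CPM, and Trem2, a lipid-sensing receptor, had 0.974 and 0.911 CPM against 13.6 and 31.0 CPM. For Tlr13, Clec4n and Trem2 the DMSO libraries were nearly equal. Among 42 genes of lipid uptake, storage and efflux, 21 rose and 6 fell, with 13 risers without MI library 2. Ch25h, cholesterol 25-hydroxylase, had 0.117 and 0.192 CPM with DMSO and 13.8 and 24.3 CPM with MI. Msr1, scavenger receptor A, had 0.857 and 1.49 CPM against 26.6 and 73.8 CPM, and Fabp4, a fatty acid carrier of macrophages and adipocytes, had 0.428 and 0.384 CPM against 5.77 and 12.1 CPM.

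Lysosome and protease genes rose in 35 of 62 tested members and fell in 3, with a median of 0.72. Without MI library 2 the median was 0.47 and 22 rose. Atp6v0d2, a proton pump subunit, had 0.0779 and 0.0959 CPM with DMSO and 11.4 and 48.0 CPM with MI. Slc11a1, the phagosomal metal transporter NRAMP1, had 1.13 and 1.29 CPM against 21.7 and 48.7 CPM. Lgmn, the cysteine protease legumain, had 0.506 and 1.15 CPM against 17.5 and 57.2 CPM, and Ctse, cathepsin E, had 0.506 and 0.719 CPM against 8.06 and 12.1 CPM. Each of the 4 genes was higher in MI library 2, as were 57 of the 62 members.

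Signals and receptors of inflammation were mostly higher. Of 51 chemokine, cytokine and receptor genes tested, 33 rose and 2 fell, with a median of 1.63. Cxcr2, the receptor that draws neutrophils to chemokines, had 4.71 and 1.77 CPM with DMSO and 232 and 261 CPM with MI, a mean 76.04-fold higher (edgeR adjusted p = 0.000287). Ccl2 and Ccl7, chemokines that attract monocytes, had 0.156 and 0.767 CPM and 0.156 and 0.144 CPM with DMSO, and 22.1 and 84.4 CPM and 8.63 and 38.2 CPM with MI. Il18, an inflammasome cytokine, had 0.350 and 0.192 CPM with DMSO and 11 and 17.9 CPM with MI. Adhesion and migration genes rose in 29 of 57 and fell in 3. Plau, urokinase, had 4.13 and 3.93 CPM with DMSO and 30.4 and 35.0 CPM with MI (edgeR adjusted p = 0.000179). Cd9, a tetraspanin, had 9.27 and 5.99 CPM against 66.0 and 120 CPM, and Nrp1, a semaphorin receptor, had 1.25 and 1.29 CPM against 12.6 and 21.7 CPM. Adam8, a leukocyte metalloprotease, had 28.5 and 2.88 CPM against 242 and 270 CPM, with the controls about as far apart as the MI libraries were from DMSO library 1.

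Of 49 myeloid transcription factors, 30 rose and 3 fell, and between 23 and 33 rose when 1 library was left out. Egr3, an early growth response factor, had 0.389 and 0.240 CPM with DMSO and 11.9 and 20.3 CPM with MI, and Irf4, an interferon regulatory factor of dendritic cells and alternatively activated macrophages, had 0.623 and 0.671 CPM against 8.93 and 7.23 CPM. Interleukin-3 was the only cytokine named in the medium. Of 52 genes of IL-3 and growth factor signalling, 23 rose and 6 fell, with 13 risers without MI library 2. Csf3r, the G-CSF receptor of neutrophils, had 53.2 and 31.6 CPM with DMSO and 271 and 394 CPM with MI. Csf2rb2, the mouse IL-3 receptor beta chain, had 47.1 and 38.9 CPM against 189 and 180 CPM. Its kinase Jak2 had 52.6 and 55.2 CPM against 161 and 150 CPM (edgeR adjusted p = 0.000533), and Tgfbr2, a TGF-beta receptor, had 27.0 and 24.6 CPM against 87.7 and 131 CPM.

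Interferon response genes rose in 33 of 53 tested members and fell in 1, with a median of 1.22 and a range of 21 to 41 risers when 1 library was left out. Without DMSO library 1 the median was 2.04. Ifitm6, a membrane protein of the interferon-induced family that is restricted to myeloid cells, had 3.35 and 1.10 CPM with DMSO and 152 and 276 CPM with MI. Oas2, a sensor of double-stranded RNA, had 8.41 and 1.25 CPM with DMSO and 89.8 and 69.8 CPM with MI. Oasl2 and Ifit1, which act against viral RNA, had 2 and 3 reads over both DMSO libraries. Oasl2 had 16.9 and 2.85 CPM with MI, a ratio of 216 (exact 95% interval 59.45 to 1789), and Ifit1 had 8.41 and 1.68 CPM with MI, a ratio of 73.83 (24.96 to 360.5). Both genes were more than 4-fold higher in MI library 1 than in MI library 2, and over the list only 6 of 53 members were higher in MI library 2, with a median difference of -0.42 on the log2 scale. The macrophage list thus lay higher in one MI library and the interferon list in the other. Of 25 genes of MHC and antigen presentation, 10 rose and 1 fell, and 14 rose without DMSO library 1. Cd80 and Cd86, costimulatory ligands for T cells, had 5.69 and 2.35 CPM and 0.818 and 0.336 CPM with DMSO, and 34.5 and 40.5 CPM and 4.86 and 9.61 CPM with MI. Nlrc5, a regulator of MHC class I genes, had 1.6 and 1.15 CPM against 11.1 and 9.72 CPM.

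Interferon-stimulated genes carry the interferon-stimulated response element (ISRE), a pair of GAAA repeats with 2 bases between them. The windows of Ifit1 and Ifitm3 are shown. Called members with a match on either strand were taken in order of the distance between closest libraries. Members without a match were passed over, and windows on a single chromosome were also left out of the choice. Each window held 2 matches, given in capitals, and both genes were higher with MI. The windows are RefSeq sequences of build GRCm38.p6 and run from 250 bases before to 50 bases after the start of the gene.

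Ifit1 (chr19:34640639-34640938, plus strand): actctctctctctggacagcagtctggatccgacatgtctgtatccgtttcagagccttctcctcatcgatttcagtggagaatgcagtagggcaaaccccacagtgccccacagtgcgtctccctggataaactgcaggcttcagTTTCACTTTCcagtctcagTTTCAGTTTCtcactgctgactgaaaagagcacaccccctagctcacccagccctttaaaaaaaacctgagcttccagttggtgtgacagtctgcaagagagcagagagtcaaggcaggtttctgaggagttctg

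Ifitm3 (chr7:141010695-141010994, minus strand): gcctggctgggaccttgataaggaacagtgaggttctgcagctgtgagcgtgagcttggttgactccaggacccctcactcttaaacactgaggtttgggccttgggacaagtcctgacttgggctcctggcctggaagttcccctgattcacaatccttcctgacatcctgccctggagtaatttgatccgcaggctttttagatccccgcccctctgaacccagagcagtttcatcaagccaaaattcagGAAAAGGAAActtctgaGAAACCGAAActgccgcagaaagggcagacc

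Ifitm3, a membrane protein that blocks virus entry, had 33.7 and 19.7 CPM with DMSO and 265 and 269 CPM with MI (edgeR adjusted p = 0.000687). The ISRE stood in 3.44% of the 32851 windows of the table. That table covers 27025 genes, tested here or not, and each share of all windows below refers to it. No share over the tested genes alone was computed. Over the interferon list the ISRE stood in 46.0% of 50 windows. These came from 42 of the 53 members only (79.2%), so the share does not cover the other members.

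DNA replication and nucleotide synthesis genes fell in 48 of 54 tested members and rose in 0, with a median log2 fold change of -0.95 and against a background of 21.2%. On the 4 libraries alone 12 fell, against 378 of 12572 genes tested in that fit. Under limma voom with sample quality weights 37 fell, against 1376 of all 12971 genes. Between 34 and 51 fell when 1 of the 4 libraries was left out, and 51 fell with total-count scaling. Gart, of purine synthesis, had 213 and 427 CPM with DMSO and 87.3 and 88.2 CPM with MI. Pold2, a subunit of DNA polymerase delta, had 95.4 and 113 CPM against 41.2 and 31.4 CPM (edgeR adjusted p = 0.000676). Shmt1, which feeds 1-carbon units to thymidylate synthesis, had 84.0 and 134 CPM against 34.6 and 36.3 CPM, and Impdh1, of guanine nucleotide synthesis, had 37.8 and 35.3 CPM against 15.1 and 6.46 CPM. The list's summed level was 7373 and 10917 CPM with DMSO and 4369 and 4441 CPM with MI. Among genes of the cell cycle and mitosis, 6 of 50 rose and 6 fell, with a median of -0.01. With total-count scaling these counts were 5 and 11, and without DMSO library 1 they were 16 and 9. Cdk6, a G1 kinase, had 319 and 174 CPM with DMSO and 78.1 and 77.2 CPM with MI, and E2f2 had 80.3 and 21.3 CPM against 192 and 235 CPM, a call lost without MI library 2.

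Myc, the transcription factor that drives ribosome production and growth, had 456 and 403 CPM with DMSO and 182 and 135 CPM with MI. The groups did not overlap, and the log2 fold change was -1.44 (SE 0.278, edgeR adjusted p = 0.00558). Its antagonist Mxd1, which competes for MAX as cells differentiate, had 113 and 36.3 CPM with DMSO and 587 and 647 CPM with MI. On the list of MYC network and ribosome biogenesis genes, 48 of 59 tested members fell and 3 rose, with a median of -1.21, and 24 fell without MI library 1. Npm1, nucleophosmin of the nucleolus, had 379 and 593 CPM with DMSO and 119 and 132 CPM with MI, a mean 3.868-fold lower (edgeR adjusted p = 0.00113). Wdr12 and Rcl1, ribosome assembly factors, had 66.0 and 187 CPM and 41.4 and 80.1 CPM with DMSO, and 18.0 and 25.8 CPM and 14.0 and 16.3 CPM with MI. In DMSO library 2 the list lay above DMSO library 1 by a median of 0.69 on the log2 scale, with 52 of 59 members higher, and without DMSO library 2 the list median was -0.80 and 41 members fell.

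Promoters of this list held the E-box CACGTG, the sequence bound by MYC-MAX dimers and by other helix-loop-helix factors, in 26.2% of 61 windows, against 7.15% of all windows. The CLEAR element of lysosome genes holds the same 6 letters. Windows were found for 51 of its 59 members. Lists that rose held it too, with 18.2% of 33 windows of specific and gelatinase granule genes. In lysosome genes it stood in 26.2% of 61 windows, but these came from 49 of 62 members only (79.0%). The windows of Mybbp1a and Wdr43, nucleolar factors of ribosome production, were chosen in the same way as those above and are shown with the E-box in capitals.

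Mybbp1a (chr11:72441077-72441376, plus strand): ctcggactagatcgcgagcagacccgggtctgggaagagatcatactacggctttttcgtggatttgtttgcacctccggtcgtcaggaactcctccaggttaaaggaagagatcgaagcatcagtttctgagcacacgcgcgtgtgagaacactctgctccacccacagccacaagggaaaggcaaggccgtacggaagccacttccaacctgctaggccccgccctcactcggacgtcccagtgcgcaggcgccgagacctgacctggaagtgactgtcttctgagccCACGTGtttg

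Wdr43 (chr17:71615965-71616264, plus strand): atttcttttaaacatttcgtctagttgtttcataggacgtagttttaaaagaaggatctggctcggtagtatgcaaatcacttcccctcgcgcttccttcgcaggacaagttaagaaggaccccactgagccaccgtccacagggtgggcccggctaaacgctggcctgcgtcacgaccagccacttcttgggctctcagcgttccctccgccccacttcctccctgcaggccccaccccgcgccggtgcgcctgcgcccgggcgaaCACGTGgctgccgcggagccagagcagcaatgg

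Mybbp1a had 432 and 778 CPM with DMSO and 199.6 and 219 CPM with MI, and Wdr43 had 155 and 261 CPM against 67.1 and 84.4 CPM, so that both genes were lower in both MI libraries.

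Amino acid and serine synthesis genes fell in 23 of 40 tested members and rose in 1, with a median of -0.94, and 12 fell without MI library 2. The gene that rose was Atf3, a stress-induced transcription factor, with 1.29 and 1.53 CPM with DMSO and 10.1 and 14.5 CPM with MI. Psat1, of serine synthesis, had 483 and 592 CPM with DMSO and 161 and 134 CPM with MI, a mean 3.643-fold lower (edgeR adjusted p = 0.000707). Slc1a4, a transporter of serine and other neutral amino acids, had 28.5 and 28.4 CPM against 4.90 and 2.37 CPM, and Bcat1, which transaminates branched-chain amino acids, had 9.81 and 14.4 CPM against 1.56 and 1.5 CPM. Members were higher in MI library 2 than in MI library 1 in 7 of 40 cases. Many such genes carry an amino acid response element, bound by C/EBP-ATF dimers. The letters TGATGNAA, read on both strands, stood in 33.3% of 39 windows of 33 members, against 3.97% of all windows. The windows of Atf3 and Slc1a4 were chosen by the same order among called members with a match. These genes moved in opposite directions, and each window held 1 match, in capitals.

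Atf3 (chr1:191183284-191183583, minus strand): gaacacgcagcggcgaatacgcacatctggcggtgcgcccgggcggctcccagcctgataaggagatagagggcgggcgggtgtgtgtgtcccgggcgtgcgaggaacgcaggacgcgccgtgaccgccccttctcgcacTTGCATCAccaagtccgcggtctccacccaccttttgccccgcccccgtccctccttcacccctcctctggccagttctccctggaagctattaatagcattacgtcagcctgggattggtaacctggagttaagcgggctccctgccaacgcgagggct

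Slc1a4 (chr11:20332664-20332963, minus strand): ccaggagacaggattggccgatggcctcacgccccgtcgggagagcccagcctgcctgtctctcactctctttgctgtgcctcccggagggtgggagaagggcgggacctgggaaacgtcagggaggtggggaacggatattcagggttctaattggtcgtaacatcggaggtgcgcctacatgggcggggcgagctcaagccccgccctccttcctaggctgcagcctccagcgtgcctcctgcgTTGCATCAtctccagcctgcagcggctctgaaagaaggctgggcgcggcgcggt

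The matches describe these windows and say nothing of which factor was bound. Of the other lists with windows for at least 80% of members, specific and gelatinase granule genes held the PU.1 letters GAGGAAGT in 12.1% of 33 windows against 3.20% of all and the MEIS letters TGACAG in 30.3% against 19.2%, and DNA replication genes held the NFY letters CCAAT in 51.0% of 51 windows against 37.4% of all. The amino acid list held CCAAT in 53.8% of its windows. These are a few of 12 motifs searched in each list, named after their shares were seen.

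Oxidative phosphorylation genes fell in 29 of 59 tested members and rose in 1, with a median of -0.47. Of these members, 13 fell without DMSO library 2 and 7 fell when either MI library was left out. Atp5b, a subunit of ATP synthase, had 1447 and 1792 CPM with DMSO and 879 and 910 CPM with MI. Uqcrc1, of respiratory complex III, had 335 and 327 CPM against 210 and 195 CPM (edgeR adjusted p = 0.00220). Ppargc1b, a coactivator of mitochondrial genes, had 6.74 and 10.5 CPM against 2.51 and 3.73 CPM, a call lost without MI library 1. Glycolysis and hypoxia genes had 8 of 44 higher and 3 lower, with a median of -0.25 that was 0.03 without DMSO library 1 and -0.45 without DMSO library 2. Slc2a3 and Slc2a6, glucose transporters, had 150 and 36.1 CPM and 7.52 and 8.73 CPM with DMSO, and 873 and 815 CPM and 46.0 and 53.4 CPM with MI, while Car12, a carbonic anhydrase, had 25 and 50.8 CPM against 3.47 and 3.58 CPM. Epas1, which encodes HIF-2 alpha, had 1.48 and 0.959 CPM against 6.68 and 7.96 CPM. Of 41 sterol and fatty acid synthesis genes, 2 rose and 5 fell, and 0 fell without MI library 2. Without DMSO library 2 the counts turned to 4 and 2, with a median of 0.12 in place of -0.16, and without DMSO library 1 they were 6 and 11. Mvd, of cholesterol synthesis, had 99.5 and 94.8 CPM against 205 and 161 CPM. Elovl6 and Gpam, of fatty acid and triglyceride synthesis, had 44.5 and 111 CPM and 19.7 and 56.1 CPM with DMSO, and 25.8 and 17.9 CPM and 11.2 and 11.7 CPM with MI. The Elovl6 call was lost without DMSO library 2 or MI library 2, and the Gpam call without either MI library.

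Cell death and p53 genes had 19 of 51 higher and 4 lower, with a median of 0.41, and 12 were higher without MI library 2. Trp53inp1, a p53 target, had 65.2 and 15.1 CPM with DMSO and 336 and 370 CPM with MI, and the polo-like kinases Plk2 and Plk3 had 1.64 and 0.767 CPM and 12.9 and 6.76 CPM with DMSO, and 15.4 and 20.7 CPM and 40.0 and 73.9 CPM with MI. Chromatin modifying enzymes had 13 of 77 higher and 18 lower, shares near the background, and with total-count scaling 7 and 26. Between 4 (without MI library 2) and 20 (without DMSO library 1) were higher with 1 library left out. Kdm7a, a histone demethylase, had 37.9 and 44.3 CPM with DMSO and 186 and 271 CPM with MI (edgeR adjusted p = 0.000287). Prmt1, an arginine methyltransferase, had 156 and 228 CPM against 76.3 and 78 CPM, and Tet1, a 5-methylcytosine oxidase, had 0.818 and 1.25 CPM against 0.130 and 0.146 CPM. Of 22 stress and RNA quality genes, 8 rose and 1 fell, and without DMSO library 1 these counts were 9 and 7. Egr1, Fos and Jun, immediate early factors, had DMSO levels of 49.8 and 11.6, 3.35 and 11.6, and 16 and 25 CPM, and MI levels of 198 and 205, 36.0 and 70.2, and 69.4 and 82.6 CPM. Nqo1, an antioxidant enzyme, had 11.5 and 1.20 CPM against 56.3 and 41.7 CPM, a call lost without either MI library.

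Markers of other cell types were mostly low, while Elane, a defining enzyme of neutrophil precursors, was read at 643.6 to 4195 CPM in the 4 libraries of these myeloid cells. Of 30 genes of B, T and NK cells, 12 had no read in the 4 libraries, Ms4a1, Pax5, Cd3e and Ncr1 among them, and the summed level was 9.89 and 15.9 CPM with DMSO and 13.5 and 18.0 CPM with MI. Among the few tested, 2 rose and 2 fell. Of 24 erythroid and megakaryocyte markers, the globin genes Hba-a1, Hba-a2, Hbb-b1 and Hbb-b2 and 3 others had no read, and the sum without the transferrin receptor Tfrc, which dividing cells also use, was 39.5 and 10.2 CPM with DMSO and 93.5 and 106 CPM with MI. In this list 4 of 11 rose and 1 fell, with Vwf, von Willebrand factor, at 2.34 and 1.87 CPM against 20.1 and 68.6 CPM. Of 24 mast cell, basophil and eosinophil markers, 8 had no read, and the sum without Hdc was 35.0 and 28.5 CPM with DMSO and 31.7 and 31.6 CPM with MI. Of the 6 tested, 1 rose and 3 fell, among them Hdc, histidine decarboxylase, which had 14.1 and 118 CPM against 12.9 and 13.8 CPM and a log2 fold change of -0.04 without DMSO library 2. Among 9 tested dendritic cell markers, 1 rose and 3 fell, and the sum was 277.6 and 244.9 CPM with DMSO and 160 and 153 CPM with MI, most of it Runx2, which myeloid progenitors share. Of 26 fibroblast, stromal and endothelial markers, 9 had no read, Col1a2, Col3a1 and Dcn among them, and the sum without vimentin was 41.1 and 305 CPM with DMSO and 52.6 and 66.6 CPM with MI. That sum was highest in DMSO library 2, which also differed in the sex of its cells, and its source was not tested. In this list 5 of 11 rose and 3 fell, with Col1a1 at 0.273 and 0.288 CPM against 2.99 and 11.3 CPM.

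Because the DMSO libraries stood apart, the MI libraries were also set against the MM401 libraries, another treated group that shares no control with them. MI was higher in 2341 genes (18.0%) and lower in 2289 (17.6%). Of the 5373 genes called against DMSO, 3970 were called against MM401 in the same direction. Both contrasts use the same MI libraries, so that they are not independent. Specific and gelatinase granule genes were higher than in MM401 in 31 of 38 and lower in 0, macrophage genes were higher in 36 of 50, and interferon response genes in 29 of 53. These counts describe RNA levels, and whether the cells themselves had matured was not tested. The study's authors report, without showing data, obvious differentiation of the myeloblasts with MM401 and not with the other inhibitors. The higher RNA levels with MI were not set against any measure of the cells' maturity. DNA replication genes were lower in 49 of 54 and MYC network and ribosome biogenesis genes in 49 of 59. Meis1 had 34.0 and 43.2 CPM with MM401, 5.41 above MI on the log2 scale (SE 0.59, edgeR adjusted p = 0.00131), and Hoxa9 had 376 and 397 CPM with MM401, with a difference of -0.02 (SE 0.12, edgeR adjusted p = 0.926).

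**Figure D4:**
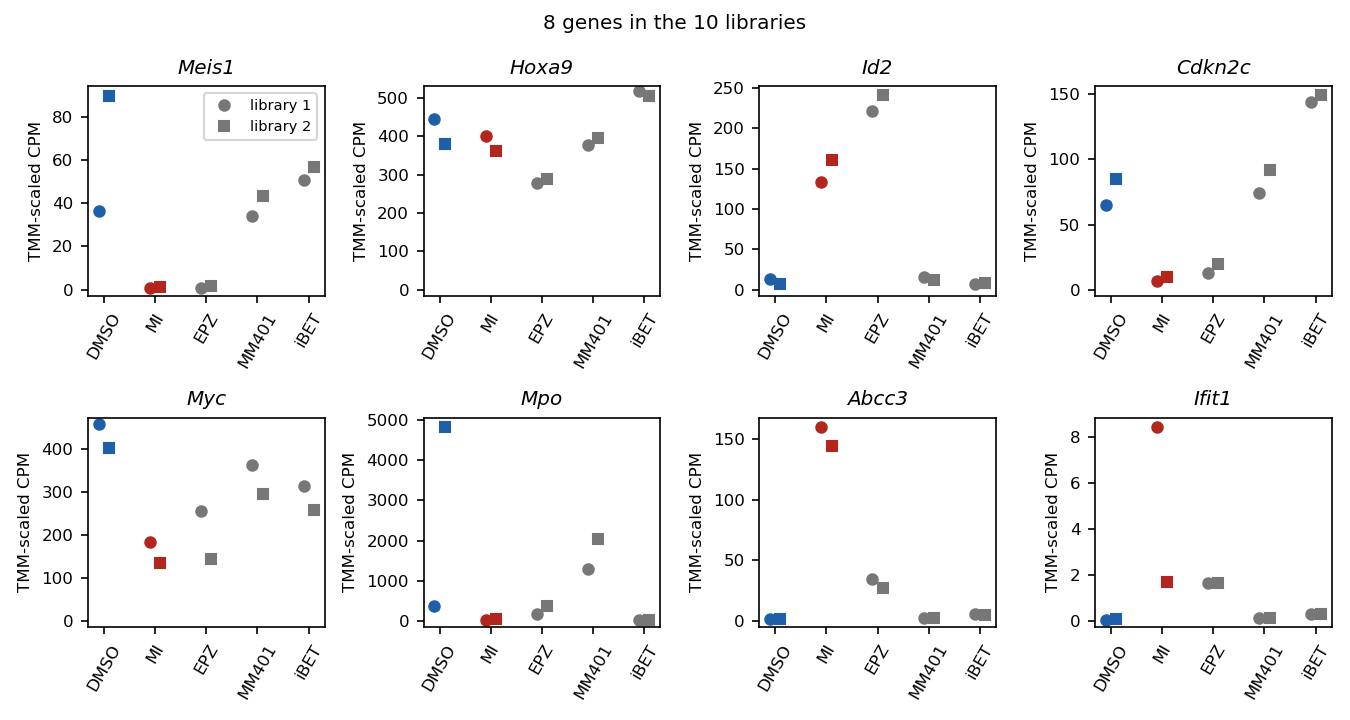
TMM-scaled CPM of 8 genes in the 10 libraries, 1 point a library (circles, library 1; squares, library 2; blue, DMSO; red, MI; grey, other inhibitors). Meis1 and Id2 in the EPZ libraries lie on the side of MI, while Abcc3 at 160 and 144 CPM with MI stands above all other libraries.

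Few genes were called between MI and EPZ. Of 12971 genes, 2 (0.0154%) were called between them, with 937 at an unadjusted p below 0.05 and 155 called by DESeq2. Abcc3, an ATP-driven exporter of conjugated drugs and bile acids, had 34.4 and 27.3 CPM with EPZ and 160 and 144 CPM with MI, against 1.99 and 1.39 CPM with DMSO. The MI libraries lay above all others, by 2.30 on the log2 scale relative to EPZ (SE 0.181, edgeR adjusted p = 0.0186). Rhobtb3, an atypical GTPase family member, had 23.8 and 23.3 CPM with EPZ and 7.07 and 5.26 CPM with MI, against 49.6 and 50.5 CPM with DMSO, a difference of -1.94 between MI and EPZ (SE 0.187, edgeR adjusted p = 0.0438). Both calls were lost when any 1 of the MI or EPZ libraries was left out. For Meis1, with 0.679 and 1.79 CPM under EPZ, the difference between MI and EPZ was -0.45 on the log2 scale (SE 0.624, edgeR adjusted p = 0.969), which does not show that the inhibitors act alike on this gene.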

How the data were processed

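RNA from the 10 cultures was made into Illumina TruSeq libraries, and the authors deposited raw counts of reads per gene symbol. The submitters' processing notes name TopHat2, Subread, DESeq and build mm9, and whether reads were counted by strand is not given in the sources used here, so overlapping and antisense genes cannot be told apart and close paralogs (Hba-a1 and Hba-a2, Csf2rb2 and its sister gene) are uncertain. All rows name genes. The depth was 20394762 to 29473127 reads a library, and 3 reads corresponded to 0.110 to 0.146 CPM; intervals cover counting error only. Counts were tested in edgeR 4.0.16 (R 4.3.3): filterByExpr, TMM, 1 coefficient per condition over all 10 libraries, glmQLFit and glmQLFTest, Benjamini-Hochberg threshold 0.05. The script was tested on simulated data.

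Named genes were the 10 in each direction with the largest distance between closest libraries (log2 of CPM + 0.1; at least 5 CPM in both libraries of the higher group, and called), 4 per list by the same distance among called members, a fixed set named whatever the value, and all called between MI and EPZ when at most 5. Mybbp1a, Wdr43, Ifitm3, Fpr1, Tfrc, Runx2, S100a9, S100a8, Ngp and the unread markers were named after their values were seen. Results of 3 genes under this rule are not reported here. The members and gene lists were chosen with earlier results of these data known. Members with no read in a group did not move any list median when set at their bound. Promoters are from the RefSeq table (GRCm38.p6), matched by symbol or older symbol, and 12 motifs were searched; their coordinates are not those of the mm9 files. Alternatives used DESeq2 1.42.0, limma 3.58.1 and other filters, scalings and sample sets.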

Additional observations from a re-analysis of the deposited data

Results flagged for a closer look

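A pair of genes differed between MI and EPZ in their response relative to the same DMSO libraries, by edgeR's test of the difference between the treatments. For Abcc3 the difference was 2.30 on the log2 scale, higher in 2 of 2 MI libraries than in both EPZ libraries (adjusted p = 0.0186). Rhobtb3 had a difference of -1.94, lower in 2 of 2 MI libraries (adjusted p = 0.0438). Both calls were lost with total-count scaling, and the cause was not tested. Groups of 2 libraries are too small for a search for single outlying values.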

How the results depend on the processing

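Against DMSO, limma voom with sample quality weights called 2659 genes and the fit on the 4 libraries alone 1147, and with 1 library left out the count ranged from 2772 (without MI library 2) to 7197 (without DMSO library 1). The share of called genes that rose, 48.9%, was 51.9% with DESeq2 size factors, 51.0% with DESeq2, 67.0% on the 4 libraries alone, 37.1% with total-count scaling, and 50.1% to 56.4% with 1 library left out. Against MM401, 4630 genes were called, 7063 with limma voom and 1729 to 2613 with 1 library left out. Between MI and EPZ, DESeq2 called 155 genes, limma voom 18, the fit without a filter 7 and total-count scaling 0 (923 at an unadjusted p below 0.05), and 0 were called with any 1 library left out (569 to 972 at an unadjusted p below 0.05). With 1 library left out, Hoxa9 ranged from -0.1868 to 0.0135, positive without DMSO library 1, and Wdr5 from -0.3007 to 0.103, positive without DMSO library 2 and without MI library 1 (0.0189). Neither was called in any of these fits. Of 132 named genes, 46 lost their call under limma voom and 42 on the 4 libraries alone. The limma voom fit used all 10 libraries, with weights of 0.25 and 0.24 for DMSO, 1.11 and 1.11 for MI and 2.30 and 2.30 for MM401. The main fit estimates a common spread for each gene over all groups. Its p-values against DMSO therefore also draw on the other groups, which were more alike within themselves. The smaller fits held fewer libraries, and the causes of these shifts were not tested.

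The labels give replicate numbers 1 and 2 in each group but do not say that they mark a shared culture or day, so the numbers were not used as pairs. The deviations of same-numbered libraries had a correlation of 0.32 between DMSO and MI and 0.67 between MI and EPZ, and all 10 pairs of groups lay between 0.28 and 0.67, a hint from the data, not from the design. With the replicate number as a block, 6557 genes were called against DMSO, 5965 against MM401 and 4 between MI and EPZ, and Cdkn1b was the single named gene whose call changed (adjusted p = 0.0150).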
